A study of Mus musculus with 15 samples.

Results

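The 10 Wnt genes described here encode secreted signalling proteins that are made in skin: Wnt3, Wnt3a, Wnt4, Wnt5a, Wnt7b, Wnt9a, Wnt10a, Wnt10b, Wnt11 and Wnt16. They were selected by gene symbol, with their levels in these libraries already known, and are 10 of the 19 Wnt genes among 48795 genes counted. Messenger RNA of mouse ear was sequenced in 15 libraries, 6 labelled PMA_1002, 4 labelled PMA_ethanol and 5 labelled Control. All were from female mice 5 weeks old, and the label of every group, Control included, names the same ear inflammation model. PMA (phorbol 12-myristate 13-acetate) is a phorbol ester that activates protein kinase C and irritates skin. By its name the PMA_1002 group had PMA and the peptide of the series title, an innate defense regulator tested for anti-inflammatory activity, and the PMA_ethanol group had PMA and ethanol. The PMA_1002 label does not name ethanol, so peptide and vehicle cannot be told apart. No source used here gives the strain, the dose, the time or any vehicle of the Control ears. Whether each library stands for its own mouse is not stated, and a p-value therefore reflects variation among libraries that could be technical.

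Wnt proteins are short-range signals. Inside the cell that makes them the enzyme Porcn attaches a fatty acid to a conserved serine, and the carrier Wls takes the modified protein to the surface. On a receiving cell a Frizzled receptor grips the fatty acid and, together with Lrp5 or Lrp6, blocks the complex that destroys beta-catenin, which then enters the nucleus and switches on genes such as Axin2 with TCF and LEF factors. Other Wnt proteins act through Ror and Ryk receptors without beta-catenin, on cell shape and tissue polarity. In skin, Wnt signals keep basal epidermal cells dividing and start each new growth phase of the hair follicle.

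The fatty acid site is conserved in all 10 genes, and its coding sequence is shown for each, in the sense direction. Each line gives 30 bases of the GENCODE M21 coding sequence on GRCm38, with the codon of the conserved serine in capitals.
Wnt3: tgtaaatgccacgggttgTCCggcagctgc
Wnt3a: tgcaaatgccacgggctaTCTggcagctgt
Wnt10a: tgcaaatgccacggcaccTCAggcagctgc
Wnt10b: tgcaaatgccatggaacgTCAggcagctgc
Wnt4: tgcaagtgtcacggggtgTCGggctcctgc
Wnt7b: tgtaagtgtcacggtgtgTCAggctcctgt
Wnt5a: tgtaagtgtcatggagtgTCTggctcctgt
Wnt11: tgtaaatgccatggggtgTCTggctcctgc
Wnt9a: tgcaaatgccatggtgtgTCTggctcctgc
Wnt16: tgccgctgccacggagttTCCggctcctgt

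All 10 windows lie inside a single coding exon, and the serine is codon 209 in Wnt3a and codon 268 in Wnt10a, the lowest and the highest position. Wnt9a and Wnt11 were the most alike, with 28 of 30 bases identical, and Wnt5a and Wnt10a the least, with 18. The serine codon was TCT in Wnt3a, Wnt5a, Wnt9a and Wnt11, TCA in Wnt7b, Wnt10a and Wnt10b, TCC in Wnt3 and Wnt16, and TCG in Wnt4. Over whole transcripts, the longest stretch that a member shared with any other Wnt gene ran from 16 bases (Wnt16 with Wnt11) to 29 bases (Wnt5a with Wnt5b). The windows of the 4 genes with the largest fold changes for PMA_1002 versus PMA_ethanol below are chr4:137296339-137296368 (plus strand, exon 5 of 5) for Wnt4, chr15:85537812-85537841 (minus strand, exon 4 of 4) for Wnt7b, chr11:103812308-103812337 (plus strand, exon 4 of 5) for Wnt3 and chr6:22297794-22297823 (plus strand, exon 4 of 4) for Wnt16.

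Several members are close neighbours of another Wnt gene. Wnt3a (minus strand) and Wnt9a (plus strand) lie 16.2 kb apart on chromosome 11, Wnt6 and Wnt10a 6.2 kb apart on chromosome 1, Wnt9b and Wnt3 24.3 kb apart on chromosome 11, and Wnt10b and Wnt1 11.7 kb apart on chromosome 15, in each case with no coding gene between them. Wnt5a overlaps the antisense gene Gm2670, and Wnt7b overlaps the antisense gene AU022754. Over all libraries Gm2670 held 104 reads against 3055 of Wnt5a, and AU022754 held 168 against 7707 of Wnt7b. Wnt11 overlaps the pseudogene Gm8398 on the opposite strand, which held 0 reads. No source used here gives the strand setting of the counting, so reads of these pairs may be misassigned or lost. The counts above do not bound how many.

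Reads in genes numbered 2656680 to 28585995 per library, and levels are CPM (read counts scaled to a common library size after TMM scaling), with fold changes on the log2 scale and their standard errors (SE). The fit was edgeR's quasi-likelihood fit over 14991 genes and all 15 libraries, a gene being called where its Benjamini-Hochberg adjusted p was under 0.05. All 10 listed marker genes of epidermis were read in every library of this ear tissue. In bulk tissue, fewer cells of a type and less RNA per cell cannot be told apart. PMA_ethanol and PMA_1002 are both set against the same Control libraries, and the 3 comparisons share libraries in pairs.

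The Wnt ligand messages were together about as abundant in PMA_1002 as in Control ears and much scarcer in PMA_ethanol ears. Summed over the 10 genes, they made up 252.0 ± 20.16 CPM in PMA_1002 (SD, n = 6), 121.1 ± 18.61 CPM in PMA_ethanol (n = 4) and 273.1 ± 17.94 CPM in Control libraries (n = 5). The lowest and highest sums were 224.8 and 279.8 in PMA_1002, 98.34 and 143.2 in PMA_ethanol, and 251.0 and 297.3 in Control. The PMA_ethanol libraries therefore lay apart from both other groups, while PMA_1002 and Control overlapped. These sums rest on 1164 to 6837 reads per PMA_1002 library, 237 to 3269 per PMA_ethanol library and 1457 to 3706 per Control library.

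**Figure D1:**
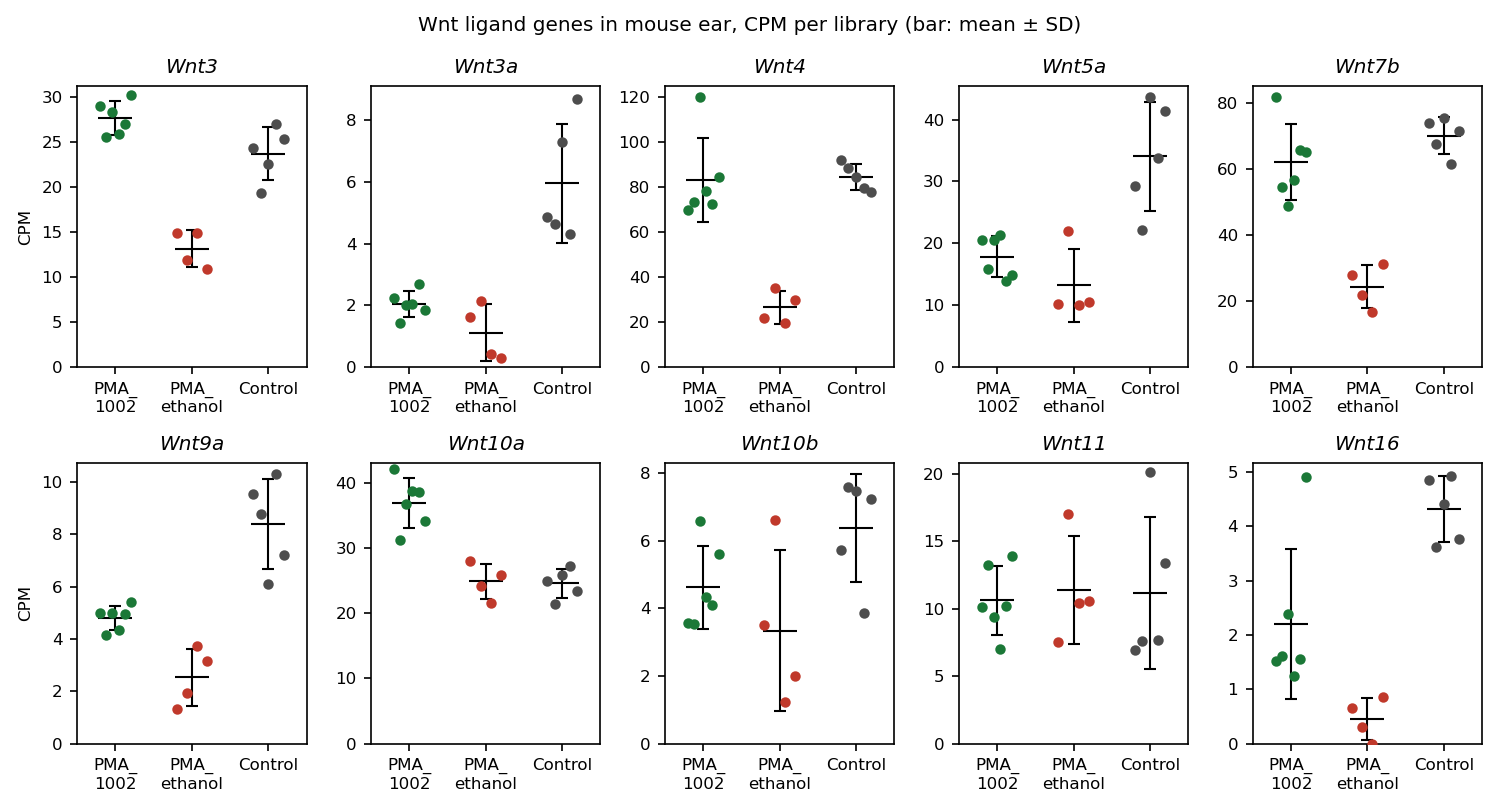
CPM (vertical axes, linear from 0) of the 10 Wnt genes in each library (points) of PMA_1002 (n = 6), PMA_ethanol (n = 4) and Control (n = 5), with mean ± SD as bars. For Wnt3, Wnt4, Wnt7b, Wnt9a and Wnt16 the PMA_ethanol points lie below all points of both other groups, whereas for Wnt10a the PMA_1002 points lie above all others.

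Among the ligands best known for beta-catenin signalling, Wnt3 followed the pattern of the sum. It had 25.5 to 30.2 CPM in PMA_1002 (median 27.7), 14.9, 11.9, 14.9 and 10.9 CPM in PMA_ethanol libraries 1 to 4, and 24.3, 19.3, 22.5, 27.0 and 25.3 CPM in Control libraries 1 to 5. Every PMA_ethanol library lay under every library of both other groups. The log2 fold change of Wnt3 was -0.87 (SE 0.119) for PMA_ethanol versus Control, 1.09 (SE 0.115) for PMA_1002 versus PMA_ethanol and 0.22 (SE 0.102) for PMA_1002 versus Control. The last value was called only without Control library 4 (0.27, SE 0.107).

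Wnt3a, a close relative of Wnt3 and the ligand most used to stimulate cultured cells, was lower than in Control in both PMA groups. It had 1.42 to 2.68 CPM in PMA_1002 (median 2.03), 1.64, 2.15, 0.415 and 0.286 CPM in PMA_ethanol, and 4.86, 4.65, 7.30, 4.32 and 8.69 CPM in Control. Both PMA groups lay wholly below Control and overlapped each other. The log2 fold change was -2.12 (SE 0.38) for PMA_ethanol versus Control, 0.60 (SE 0.38) for PMA_1002 versus PMA_ethanol and -1.52 (SE 0.318) for PMA_1002 versus Control. The value between the PMA groups was 1.18 (SE 0.439) without PMA_ethanol library 2 and 0.30 (SE 0.331) without PMA_ethanol library 4. In all, Wnt3a held 143 reads in PMA_1002, 67 in PMA_ethanol and 227 in Control.

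Wnt10a, whose loss in people disturbs teeth, hair and sweat glands, had another pattern. It had 31.3 to 42.1 CPM in PMA_1002 (median 37.7), 28.0, 24.2, 21.6 and 25.9 CPM in PMA_ethanol, and 25.0, 21.4, 25.8, 27.3 and 23.4 CPM in Control. PMA_ethanol and Control covered almost the same range, and every PMA_1002 library lay above both. It differed on the log2 scale by 0.03 (SE 0.105) for PMA_ethanol versus Control, 0.56 (SE 0.101) for PMA_1002 versus PMA_ethanol and 0.59 (SE 0.0937) for PMA_1002 versus Control. With upper-quartile scaling the first of these was -0.21.

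Wnt10b, which promotes hair growth, was low in all groups, with 3.55 to 6.58 CPM in PMA_1002, 1.24 to 6.61 in PMA_ethanol and 3.85 to 7.58 in Control. All 3 groups overlapped. Its log2 fold change was -0.76 (SE 0.337) for PMA_ethanol versus Control and was not called. PMA_ethanol library 2 alone held 6.61 CPM, against 3.51 or less in the other 3 libraries, and without it the value was -1.37 (SE 0.321) and called. Without Control library 4 it was also called, at -0.90 (SE 0.339). PMA_1002 versus PMA_ethanol gave 0.27 (SE 0.327), and 0.87 (SE 0.314, called) without PMA_ethanol library 2.

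Wnt4 and Wnt7b, ligands made by keratinocytes, were the most abundant members by CPM in PMA_1002 and Control. Wnt4 had 69.9 to 120 CPM in PMA_1002 (median 76.0), 21.8, 35.3, 19.5 and 30 CPM in PMA_ethanol, and 92.1, 88.4, 84.5, 79.8 and 78.1 CPM in Control. All 4 PMA_ethanol libraries lay below every other library, and PMA_1002 overlapped Control. On the log2 scale the difference was -1.62 (SE 0.173) for PMA_ethanol versus Control, 1.59 (SE 0.169) for PMA_1002 versus PMA_ethanol and -0.03 (SE 0.146) for PMA_1002 versus Control. The near-zero value changed sign with no filter on low counts (0.02).

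Wnt7b, which takes part in starting hair growth, had 48.9 to 81.8 CPM in PMA_1002 (median 60.9), 27.8, 21.8, 16.6 and 31.2 CPM in PMA_ethanol, and 73.9, 67.5, 75.5, 61.6 and 71.5 CPM in Control. Its PMA_ethanol libraries again lay below all others, and PMA_1002 libraries reached both under and over the Control range. Its log2 fold change was -1.50 (SE 0.161) for PMA_ethanol versus Control, 1.33 (SE 0.156) for PMA_1002 versus PMA_ethanol and -0.17 (SE 0.135) for PMA_1002 versus Control.

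Wnt5a and Wnt11 are the members best known for signalling without beta-catenin, in the polarity and movement of cells. Wnt5a had 13.9 to 21.4 CPM in PMA_1002 (median 18.2), 10.2, 22, 9.96 and 10.6 CPM in PMA_ethanol, and 29.3, 22.2, 43.6, 33.8 and 41.3 CPM in Control. Both PMA groups lay below Control by a small margin only. Control library 2 (22.2 CPM) was just above PMA_ethanol library 2 (22 CPM) and the highest PMA_1002 library (21.4 CPM). The log2 fold change was -1.31 (SE 0.253) for PMA_ethanol versus Control, 0.36 (SE 0.244) for PMA_1002 versus PMA_ethanol and -0.95 (SE 0.22) for PMA_1002 versus Control. The value for PMA_1002 versus PMA_ethanol was 0.78 (SE 0.212) and called without PMA_ethanol library 2.

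Wnt11 overlapped in all groups, with 7.0 to 13.9 CPM in PMA_1002, 7.56 to 17.0 in PMA_ethanol and 6.94 to 20.1 in Control. It differed by 0.03 (SE 0.315) on the log2 scale for PMA_ethanol versus Control, by -0.12 (SE 0.303) for PMA_1002 versus PMA_ethanol and by -0.09 (SE 0.283) for PMA_1002 versus Control. Each of these values changed sign under some alternative.

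Wnt9a, known for its part in joint formation, had 4.16 to 5.42 CPM in PMA_1002 (median 4.96), 1.32, 1.93, 3.73 and 3.15 CPM in PMA_ethanol, and 9.54, 8.78, 6.10, 10.3 and 7.22 CPM in Control. The 3 groups did not overlap, and PMA_1002 lay between the others. It differed on the log2 scale by -1.85 (SE 0.253) for PMA_ethanol versus Control, 1.06 (SE 0.247) for PMA_1002 versus PMA_ethanol and -0.80 (SE 0.204) for PMA_1002 versus Control.

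By mean level per length of exon, Wnt16, known for its part in bone mass, was the lowest in every group. It also had the largest fold difference of the 10 for PMA_ethanol versus Control. It had 1.24 to 4.91 CPM in PMA_1002 (median 1.59), 0.658, 0.307, 0 and 0.858 CPM in PMA_ethanol, and 4.86, 3.62, 4.41, 4.93 and 3.77 CPM in Control. PMA_ethanol lay below both other groups, and 5 PMA_1002 libraries lay below Control while library 6 lay within its range. On the log2 scale the difference was -3.12 (SE 0.46) for PMA_ethanol versus Control, 2.09 (SE 0.466) for PMA_1002 versus PMA_ethanol and -1.02 (SE 0.33) for PMA_1002 versus Control. These rest on 122, 19 and 159 reads in PMA_1002, PMA_ethanol and Control. PMA_ethanol library 3 held 0 Wnt16 reads among 2656680 reads in genes, which allows a level of up to 1.25 CPM (3 reads, counting error only).

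**Figure D2:**
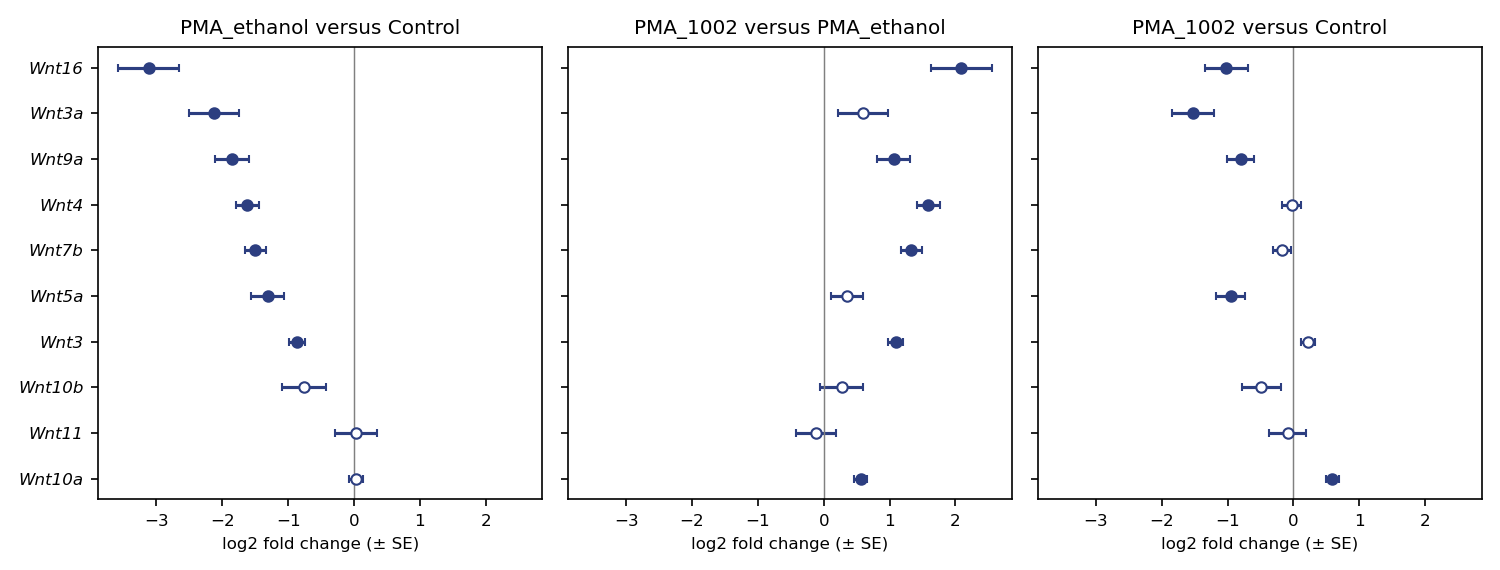
Log2 fold changes ± SE (horizontal axes) of the 10 Wnt genes, in rows ordered by their value for PMA_ethanol versus Control, for PMA_ethanol versus Control (left), PMA_1002 versus PMA_ethanol (middle) and PMA_1002 versus Control (right). Filled points were called, which holds for 7, 6 and 5 genes from left to right, and open points were not.

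Counted over the family for PMA_ethanol versus Control, 7 of the 10 genes were called lower and had groups that did not overlap, 3 were not called (Wnt10a, Wnt10b and Wnt11), and the median log2 fold change was -1.41. Of all genes tested, 35.9% were called lower, 32.5% were called higher and 29.6% were lower with no overlap, and the median over all genes was -0.067. For PMA_1002 versus PMA_ethanol, 6 of the 10 were called higher with no overlap, none was called lower, and the median was 0.83. All genes gave 17% called higher, 18% called lower, 11% higher with no overlap, and a median of 0.032. For PMA_1002 versus Control, 4 members were called lower (Wnt3a, Wnt5a, Wnt9a and Wnt16), 3 of these with no overlap, and Wnt10a was called higher with no overlap, with a median of -0.33. All genes gave 26.7% called lower, 28.4% called higher, 16.5% lower and 20.2% higher with no overlap, and a median of -0.029. Because the 10 genes were chosen with these levels known, their counts describe them and are not a test.

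Per length of exon, the order of the genes differed between the groups. In PMA_1002 the mean levels per kilobase were 19.8 ± 4.47 CPM for Wnt4, 15 ± 1.54 for Wnt10a, 12.7 ± 2.36 for Wnt7b and 8.98 ± 0.599 for Wnt3 (SD, n = 6), and of these neighbours Wnt7b and Wnt3 were apart. In PMA_ethanol they were 10.1 ± 1.1 for Wnt10a, 6.35 ± 1.75 for Wnt4, 4.97 ± 1.32 for Wnt7b and 4.28 ± 0.67 for Wnt3 (n = 4), with Wnt10a apart from Wnt4 and the rest overlapping. In Control they were 20.2 ± 1.39 for Wnt4, 14.3 ± 1.14 for Wnt7b, 9.96 ± 0.919 for Wnt10a and 7.70 ± 0.956 for Wnt3 (n = 5), with Wnt4, Wnt7b and Wnt10a apart from each other and Wnt10a overlapping Wnt3. By mean, Wnt10a thus ranked 2 in PMA_1002, 1 in PMA_ethanol and 3 in Control. The other 6 genes each had a mean under 5 CPM per kilobase in every group. Their means put Wnt5a and Wnt11 above Wnt9a, Wnt3a, Wnt10b and Wnt16, which was last in all 3. Several neighbours in this order overlapped, such as Wnt11 and Wnt9a in Control and Wnt3a and Wnt16 in PMA_1002 and PMA_ethanol.

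**Figure D3:**
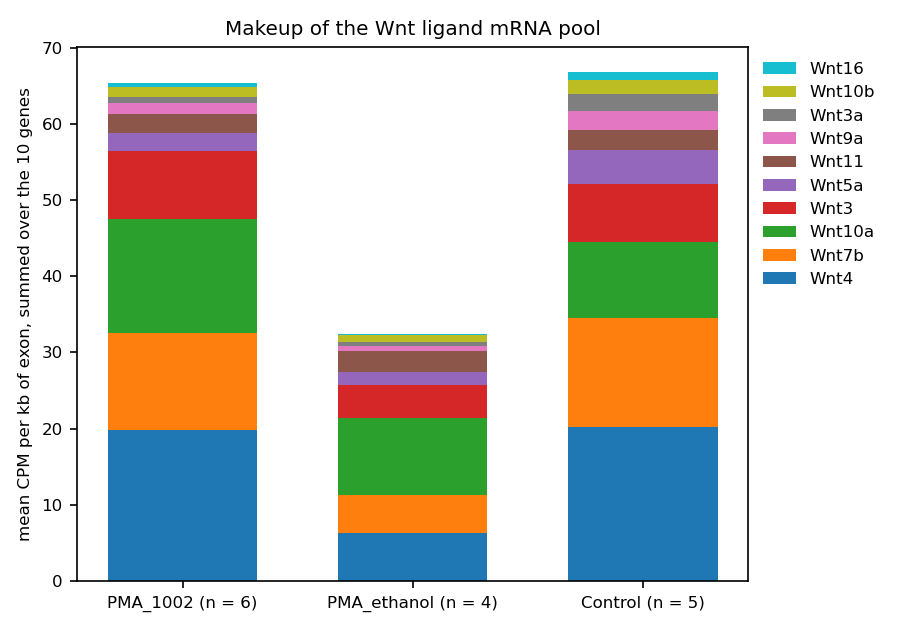
Mean CPM per kilobase of exon (vertical axis, from 0) of the 10 Wnt genes, stacked in colours, in PMA_1002 (n = 6), PMA_ethanol (n = 4) and Control (n = 5). The stack totals 65.34 in PMA_1002, 32.39 in PMA_ethanol and 66.7 in Control, and the Wnt10a segment is about as tall in PMA_ethanol (10.1) as in Control (9.96).

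As a share of the summed level per length, Wnt10a made up 22.9% ± 2.2 in PMA_1002, 31.4% ± 3.52 in PMA_ethanol and 14.9% ± 1.29 in Control (SD, n = 6, 4 and 5), with no overlap between any groups. Wnt4 made up 30.2% ± 5.13 in PMA_1002, 19.4% ± 3.28 in PMA_ethanol and 30.3% ± 2.8 in Control. Wnt5a made up 3.5% ± 0.609, 5.11% ± 1.71 and 6.48% ± 1.42 in the same groups, and Wnt11 3.96% ± 1.08, 8.45% ± 2.34 and 3.98% ± 1.81. A share rises when other members fall, so these values describe the mixture and not the single genes.

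Genes of epidermis and of leukocytes differed between the same groups. The 10 epidermal markers, all read in every library, summed to 23480 to 27240 CPM in PMA_1002 (median 24880), 11750 to 15760 in PMA_ethanol (median 14250) and 21440 to 27780 in Control (median 25280). Of these 10 genes, 7 fell and 1 rose in PMA_ethanol versus Control (median log2 fold change -0.44), 7 rose in PMA_1002 versus PMA_ethanol (0.61), and 1 fell and 3 rose in PMA_1002 versus Control (0.17). The 7 leukocyte markers tested summed to 776.8 to 1048 CPM in PMA_1002, 1872 to 2661 in PMA_ethanol and 373.2 to 500.4 in Control. Of them 5 rose in PMA_ethanol versus Control, 5 fell in PMA_1002 versus PMA_ethanol, and 5 rose in PMA_1002 versus Control. Of all genes tested, 35.9% fell and 32.5% rose in the first comparison, and 18% fell and 17% rose in the second. In the third 26.7% fell and 28.4% rose, so the 3 epidermal genes that rose there were near that share. Other marker lists, hair follicle aside, also held calls in PMA_ethanol versus Control. Of 8 dermal fibroblast genes 4 fell and 1 rose, and of 5 sebaceous gland genes 2 fell and 1 rose. Of 5 endothelium genes 2 fell and 2 rose, and of 5 dermal papilla genes 2 fell. Of 5 cartilage genes 1 fell, of 5 adipocyte genes 1 fell, and of 6 skeletal muscle genes 0 were called. The part of these epidermal, leukocyte and other marker genes in the Wnt levels was not tested.

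Hair follicle content varied inside every group, so each member was also set against it with the group held fixed, a relation that the choice of members did not use. The hair follicle level, the mean log2 CPM of 23 genes of hair matrix, shaft and inner sheath, ran between -0.38 and 5.231 in PMA_1002, between -0.598 and 6.747 in PMA_ethanol and between 1.505 and 6.92 in Control. Wnt5a rose by 0.13 on the log2 scale per unit of hair follicle level (SE 0.0281, edgeR adjusted p = 0.00945), and 5.01% of all genes were called for this relation in either direction. Without the 2 libraries farthest from the median level, Control library 3 and PMA_ethanol library 2, the Wnt5a slope was 0.09 (SE 0.0281, edgeR adjusted p = 0.124) and the call was lost. The other 9 members were not called, with slopes from -0.09 for Wnt9a and Wnt16 to 0.14 for Wnt3a (SE 0.0549, edgeR adjusted p = 0.166). With the hair follicle level as a covariate, 3 values that had not been called were called, that of Wnt10b for PMA_ethanol versus Control (-0.78, SE 0.31) and those of Wnt3a (1.07, SE 0.376) and Wnt5a (0.68, SE 0.181) for PMA_1002 versus PMA_ethanol. Over all 22 alternatives these values were called in 4 for Wnt10b, 1 for Wnt3a and 2 for Wnt5a.

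**Figure D4:**
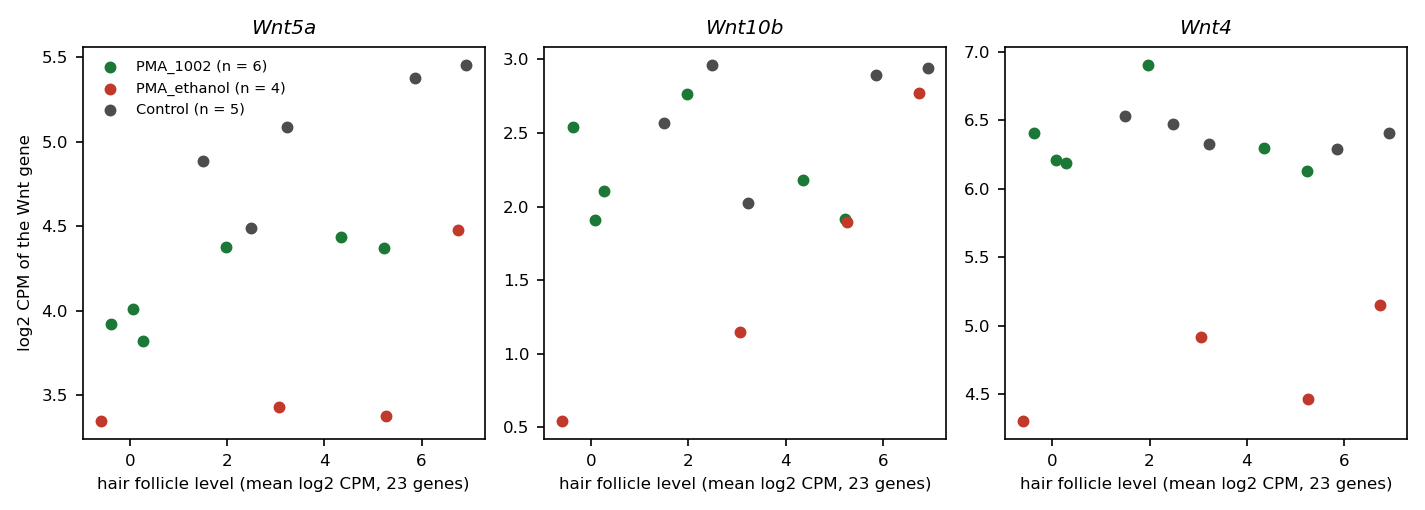
Log2 CPM of Wnt5a, Wnt10b and Wnt4 (vertical axes, each with its own range) against the hair follicle level of the library (horizontal axes, mean log2 CPM of 23 genes), 1 point per library, coloured by PMA_1002 (n = 6), PMA_ethanol (n = 4) and Control (n = 5). The fitted slope within groups was 0.13 for Wnt5a and 0.01 for Wnt4, and the Wnt5a point of PMA_ethanol library 2, at a level of 6.747, lies above 3 PMA_ethanol points of nearly equal height.

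Genes with a pattern most like each member over the 15 libraries were named by the smallest root-mean-square (RMS) difference of centred log2 CPM. Only tested genes with a mean of at least 1 CPM and an assigned symbol were searched, without Gm and Rik names. For Wnt3 these were Polr3g (RMS 0.121) and Fam57a (0.157), for Wnt4 Tnfrsf19 (0.199) and Trerf1 (0.251), and for Wnt7b Rasal1 (0.163) and Gjb5 (0.176). Wnt9a was most like Tmem184a (0.200) and the R-spondin receptor gene Lgr6 (0.236), and Wnt10a most like Phlda3 and Shmt1 (0.121 each). For Wnt5a they were Mt4 (0.211) and Trim59 (0.212). The RMS was larger for Wnt3a, nearest Trpv6 (0.425) and Lhx2 (0.439), for Wnt10b, nearest Kcnn1 (0.302) and Tspyl3 (0.303), for Wnt11, nearest Sp6 (0.286) and Fyb2 (0.313), and for Wnt16, nearest Cavin2 (0.397) and Cttnbp2 (0.403). Each difference can be set against the member's own SD over the 15 libraries, from 0.322 for Wnt10a to 1.358 for Wnt16.

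The rest of the pathway was counted in 11 lists of 94 genes, of which 84 were tested, and a few genes such as Znrf3 and Rnf43 stand in more than 1 list. In PMA_ethanol versus Control 52 fell and 13 rose (median log2 fold change -0.64), where 35.9% of all genes fell and 32.5% rose. In PMA_1002 versus PMA_ethanol 33 rose and 3 fell (0.28), where 17% of all genes rose and 18% fell. In PMA_1002 versus Control 40 fell and 12 rose (-0.34), where 26.7% of all genes fell and 28.4% rose. These shares over all genes are the background of the counts in each list below. With upper-quartile scaling 60 fell and 7 rose in the first of these comparisons, and 49 fell and 6 rose in the last. Adjusted p-values of pathway genes below come from the same edgeR fit over 14991 genes.

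**Figure D5:**
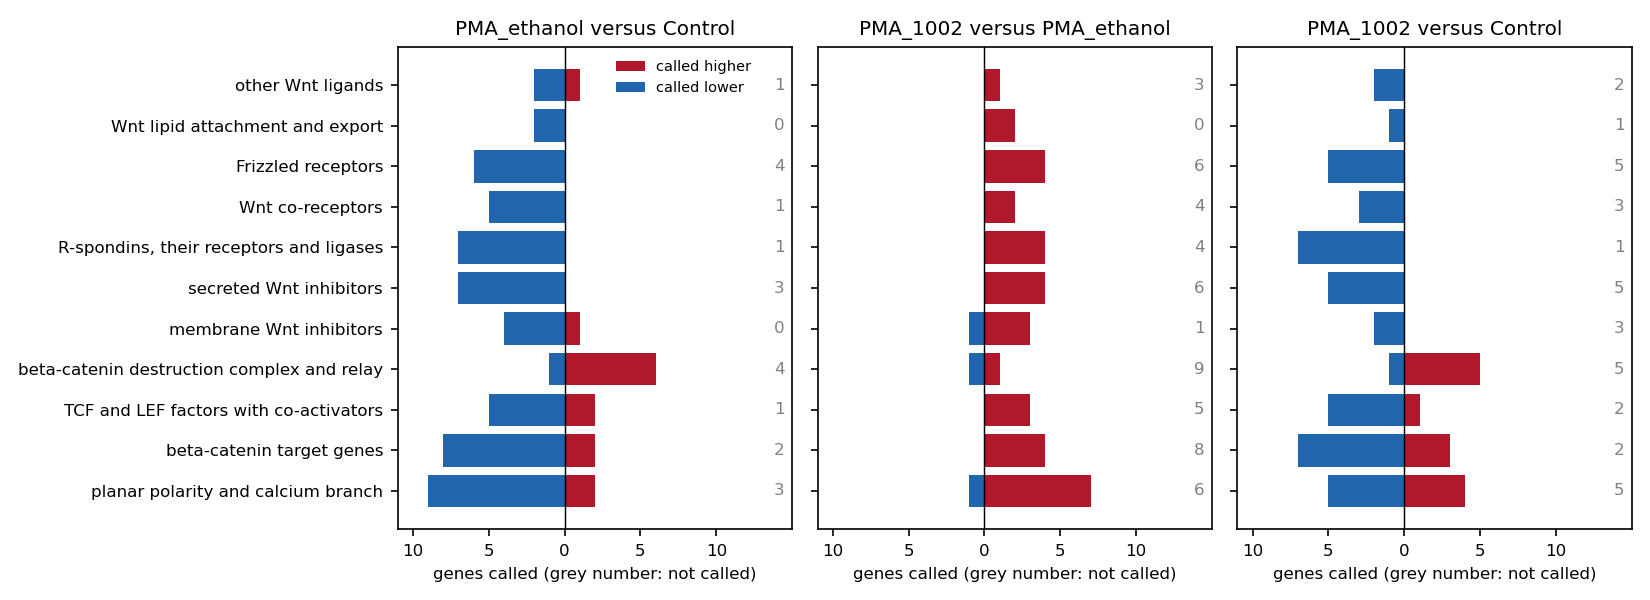
Number of genes called higher (red, to the right) and lower (blue, to the left) in each of the 11 pathway lists, for PMA_ethanol versus Control (left), PMA_1002 versus PMA_ethanol (middle) and PMA_1002 versus Control (right), with the number not called in grey. A gene in more than 1 list is drawn in each. With each gene counted once, 52 fell and 13 rose in PMA_ethanol versus Control. Counted the same way, 33 of the 36 genes called in PMA_1002 versus PMA_ethanol rose. In the left panel, only the list of the beta-catenin destruction complex has more calls to the right (6) than to the left (1).

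Of the 9 other Wnt genes, 4 passed the filter on low counts. Wnt6, the neighbour of Wnt10a, had 1.83 to 3.73 CPM in PMA_1002, 1.21, 1.62, 0.415 and 1.43 CPM in PMA_ethanol, and 3.64, 4.48, 5.54, 3.54 and 6.40 CPM in Control. It fell in PMA_ethanol versus Control (log2 fold change -1.83, SE 0.303, edgeR adjusted p = 4.21e-05) and in PMA_1002 versus Control (-0.87, SE 0.248, adjusted p = 0.00694). It rose in PMA_1002 versus PMA_ethanol (0.96, SE 0.299, adjusted p = 0.0193). That call was lost without PMA_ethanol library 1 (0.92, adjusted p = 0.0541) and with a replicate block (0.82, adjusted p = 0.113). Wnt5b, the closest relative of Wnt5a, fell in both PMA groups versus Control, by 1.42 in PMA_ethanol (SE 0.217, adjusted p = 1.75e-05) and by 1.11 in PMA_1002 (SE 0.186, adjusted p = 9.14e-05). Wnt2 rose by 0.72 in PMA_ethanol versus Control (SE 0.311, adjusted p = 0.0479), a call kept in only 9 of 22 alternatives and lost, for example, without PMA_ethanol library 1 (0.44, adjusted p = 0.252). Wnt2b was not called in any comparison.

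Both genes for making active Wnt protein fell in PMA_ethanol versus Control. Wls, the carrier, had 127 to 141 CPM in PMA_1002, 99.9, 101, 74.3 and 113 CPM in PMA_ethanol, and 188, 178, 198, 190 and 210 CPM in Control. The 3 groups did not overlap. Wls fell by 0.98 in PMA_ethanol versus Control (SE 0.0929, edgeR adjusted p = 6.78e-08), rose by 0.48 in PMA_1002 versus PMA_ethanol (SE 0.089, adjusted p = 0.00049) and fell by 0.50 in PMA_1002 versus Control (SE 0.0814, adjusted p = 6.76e-05). Porcn, the enzyme that modifies the serine shown above, fell by 1.08 in PMA_ethanol versus Control (SE 0.189, adjusted p = 7.38e-05) and rose by 0.88 in PMA_1002 versus PMA_ethanol (SE 0.183, adjusted p = 0.00127). For PMA_1002 versus Control it was not called (-0.20, adjusted p = 0.309). With the group held fixed, Porcn rose by 0.10 per unit of hair follicle level (SE 0.0206, edgeR adjusted p = 0.00652), a call lost without the same 2 libraries (0.09, adjusted p = 0.0706).

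Frizzled receptors fell in 6 of 10 cases in PMA_ethanol versus Control, rose in 4 in PMA_1002 versus PMA_ethanol and fell in 5 in PMA_1002 versus Control, and none was called the other way. Among the last 5, Fzd1 (-0.34, adjusted p = 0.0496), was called in 7 of 22 alternatives, and 4 fell, for example, without any 1 Control library. Fzd2 averaged 14.9 CPM in PMA_1002, 8.67 in PMA_ethanol and 35.9 in Control, a log2 fold change of -2.04 for PMA_ethanol versus Control (SE 0.193, edgeR adjusted p = 6.63e-08) and -1.28 for PMA_1002 versus Control (SE 0.16, adjusted p = 4.44e-06). Fzd10 fell by 1.52 in PMA_ethanol versus Control (SE 0.161, adjusted p = 2.65e-07) and rose by 0.76 in PMA_1002 versus PMA_ethanol (SE 0.154, adjusted p = 0.00108). Fzd7 fell by 1.19 (SE 0.0963, adjusted p = 9.33e-09) and rose by 0.58 (SE 0.0926, adjusted p = 0.000125) in the same comparisons. Fzd8 rose by 0.65 in PMA_1002 versus PMA_ethanol (SE 0.142, adjusted p = 0.00186).

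Co-receptors fell in 5 of 6 cases in PMA_ethanol versus Control, and in PMA_1002 versus Control 3 fell (6 with upper-quartile scaling and 1 with no filter on low counts). Lrp5, which works with Frizzled toward beta-catenin, fell by 0.68 (SE 0.101, edgeR adjusted p = 1.32e-05) and rose by 0.54 in PMA_1002 versus PMA_ethanol (SE 0.0972, adjusted p = 0.000359). Ror1, a receptor for Wnt5a, fell by 1.01 in PMA_ethanol (SE 0.196, adjusted p = 0.000207) and by 0.65 in PMA_1002 (SE 0.17, adjusted p = 0.00367), both versus Control. Ryk fell by 0.51 in PMA_ethanol versus Control (SE 0.0673, adjusted p = 3.42e-06) and rose by 0.28 in PMA_1002 versus PMA_ethanol (SE 0.0648, adjusted p = 0.00268). Ptk7, a polarity co-receptor, fell by 0.62 in PMA_1002 versus Control (SE 0.197, adjusted p = 0.0155), a call lost without Control library 3 (-0.45, adjusted p = 0.0503).

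R-spondins are secreted proteins that, through Lgr receptors, protect Frizzled from the ligases Rnf43 and Znrf3. In this list 7 of 8 genes tested fell in PMA_ethanol versus Control and 7 of 8 fell in PMA_1002 versus Control, while 4 of 8 rose in PMA_1002 versus PMA_ethanol. Lgr6, a stem cell marker of skin, averaged 38.0 CPM in PMA_1002, 20.7 in PMA_ethanol and 69.9 in Control, falling by 1.78 in PMA_ethanol versus Control (SE 0.164, edgeR adjusted p = 4.85e-08) and rising by 0.90 in PMA_1002 versus PMA_ethanol (SE 0.157, adjusted p = 0.000295). Rnf43 fell by 1.86 in PMA_ethanol versus Control (SE 0.202, adjusted p = 3.74e-07) and by 1.22 in PMA_1002 versus Control (SE 0.171, adjusted p = 1.49e-05), and Znrf3 by 0.90 in PMA_ethanol versus Control (SE 0.0877, adjusted p = 9.63e-08). Rspo3 fell by 1.69 in PMA_1002 versus Control (SE 0.238, adjusted p = 1.56e-05) and Lgr4 by 0.75 (SE 0.0925, adjusted p = 4.13e-06). Rspo1 rose by 0.68 in PMA_1002 versus PMA_ethanol (SE 0.161, adjusted p = 0.00327).

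Of 10 secreted inhibitors tested 7 fell in PMA_ethanol versus Control, 4 rose in PMA_1002 versus PMA_ethanol and 5 fell in PMA_1002 versus Control (8 with upper-quartile scaling). Among these 5, Sfrp1 (-0.36, adjusted p = 0.046) was called in 8 of 22 alternatives and lost its call, for example, without any 1 Control library. Sostdc1, which blocks both Wnt and BMP signals, had 4.69 to 13.0 CPM in PMA_1002, 2.52, 4.07, 4.98 and 1.43 CPM in PMA_ethanol, and 33.0, 34.8, 37.1, 38.8 and 46.4 CPM in Control. Both PMA groups lay far below Control, with log2 fold changes of -3.60 for PMA_ethanol (SE 0.311, edgeR adjusted p = 4.3e-08) and -2.18 for PMA_1002 (SE 0.239, adjusted p = 1.67e-06). Dkk2, which binds Lrp5 and Lrp6, fell by 1.82 in PMA_ethanol versus Control (SE 0.142, adjusted p = 6.5e-09) and rose by 1.14 in PMA_1002 versus PMA_ethanol (SE 0.137, adjusted p = 7.22e-06). Sfrp2, a decoy for Wnt proteins, fell by 1.46 (SE 0.164, adjusted p = 5.39e-07) and rose by 0.81 (SE 0.158, adjusted p = 0.000758) in the same comparisons, and Dkk3 rose by 0.43 in the second (SE 0.0837, adjusted p = 0.000732).

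Of 5 membrane inhibitors tested 4 fell and 1 rose in PMA_ethanol versus Control. Among these 4, Kremen2 (-0.89, edgeR adjusted p = 0.0305) lost its call under some alternatives, for example without Control library 3 (-0.71, adjusted p = 0.0911). Apcdd1, which binds Wnt proteins at the surface, averaged 32.4 CPM in PMA_1002, 17.4 in PMA_ethanol and 101 in Control, and fell by 2.45 in PMA_ethanol (SE 0.235, edgeR adjusted p = 1.91e-07) and by 1.64 in PMA_1002 (SE 0.195, adjusted p = 4.82e-06), both versus Control. Shisa2, which holds Frizzled back inside the cell, fell by 1.54 in PMA_ethanol versus Control (SE 0.185, adjusted p = 1.23e-06) and rose by 0.74 in PMA_1002 versus PMA_ethanol (SE 0.178, adjusted p = 0.00404). Tmem88, an inhibitor that binds Dishevelled, rose by 1.10 in PMA_ethanol versus Control (SE 0.294, adjusted p = 0.00303) and fell by 0.88 in PMA_1002 versus PMA_ethanol (SE 0.274, adjusted p = 0.0193). The last call was lost without PMA_ethanol library 4 (-0.72, adjusted p = 0.0702), with the hair follicle level as covariate (-0.71, adjusted p = 0.0636) and with a replicate block (-0.89, adjusted p = 0.0859).

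In the beta-catenin destruction complex and its relay, 6 of 11 genes rose and 1 fell in PMA_ethanol versus Control, and 5 rose and 1 fell in PMA_1002 versus Control. With upper-quartile scaling 2 rose in each of these comparisons, and in the first the calls of Apc, Axin1, Gsk3a and Dvl1 were lost. In the second, 3 rose without Control library 1, 4 or 5 or PMA_1002 library 5. In PMA_ethanol versus Control 2 of 3 casein kinase genes rose, Csnk1d by 0.95 (SE 0.0684, edgeR adjusted p = 2.45e-09) and Csnk1a1 by 0.84 (SE 0.114, adjusted p = 4.44e-06), while Csnk1e was not called (0.04, adjusted p = 0.796), and Dvl2, a Dishevelled protein, fell by 1.02 (SE 0.106, adjusted p = 2e-07). In PMA_1002 versus PMA_ethanol Csnk1d fell by 0.54 (SE 0.0652, adjusted p = 7.73e-06) and Dvl2 rose by 0.37 (SE 0.102, adjusted p = 0.00984). Ctnnb1, the beta-catenin gene itself, was not called in any comparison and averaged 575 CPM in PMA_1002, 638 in PMA_ethanol and 574 in Control. Ctnnb1 was named for its role after its values were seen.

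Of 8 TCF and LEF factors with their co-activators, 5 fell and 2 rose in PMA_ethanol versus Control, and 3 rose in PMA_1002 versus PMA_ethanol. Bcl9l, a beta-catenin co-activator, averaged 68.9 CPM in PMA_1002, 33.3 in PMA_ethanol and 143 in Control, falling by 2.06 in PMA_ethanol versus Control (SE 0.22, edgeR adjusted p = 7.86e-07) and rising by 1.0 in PMA_1002 versus PMA_ethanol (SE 0.21, adjusted p = 0.00186). Its relative Bcl9 fell by 0.93 in PMA_ethanol (SE 0.105, adjusted p = 5.78e-07) and by 0.82 in PMA_1002 (SE 0.092, adjusted p = 1.35e-06), both versus Control. Tcf7l2 and Pygo1 fell by 0.68 (SE 0.108, adjusted p = 5.5e-05) and 0.74 (SE 0.121, adjusted p = 7.09e-05) in PMA_1002 versus Control. Their calls in PMA_1002 versus PMA_ethanol (0.34 and 0.41) held in 11 and 15 of 22 alternatives and both were lost, leaving 1 gene called, without PMA_ethanol library 3 (adjusted p = 0.0848 for Tcf7l2 and 0.0772 for Pygo1) or without PMA_ethanol library 1.

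Of 12 beta-catenin target genes tested 8 fell and 2 rose in PMA_ethanol versus Control, 4 rose in PMA_1002 versus PMA_ethanol (7 with upper-quartile scaling or with the hair follicle level as covariate), and 7 fell and 3 rose in PMA_1002 versus Control. Axin2, the most used readout of beta-catenin signalling, had 28.3 to 37.5 CPM in PMA_1002, 9.43, 15.4, 8.71 and 10.3 CPM in PMA_ethanol, and 73.7, 74.8, 69.8, 71.7 and 65.9 CPM in Control. The 3 groups did not overlap. Axin2 fell by 2.64 in PMA_ethanol versus Control (SE 0.141, edgeR adjusted p = 5.85e-11), rose by 1.47 in PMA_1002 versus PMA_ethanol (SE 0.135, adjusted p = 5.13e-07) and fell by 1.17 in PMA_1002 versus Control (SE 0.113, adjusted p = 2.45e-07). Myc, a target in many tissues that other signals also induce, went the other way, with 218 to 274 CPM in PMA_1002, 199 to 271 in PMA_ethanol and 62.6 to 75.3 in Control. Myc rose by 1.73 in PMA_ethanol (SE 0.0918, adjusted p = 5.39e-11) and by 1.83 in PMA_1002 (SE 0.0861, adjusted p = 4.54e-11), both versus Control, and was not called between the PMA groups (0.10, adjusted p = 0.387). Ccnd1, a cell cycle gene, rose by 0.63 in PMA_1002 versus PMA_ethanol (SE 0.141, adjusted p = 0.00241).

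In the polarity and calcium branch, which Wnt5a and Wnt11 use, 9 of 14 genes fell and 2 rose in PMA_ethanol versus Control, and 7 rose and 1 fell in PMA_1002 versus PMA_ethanol. Among these 7, Vangl2 (0.74, adjusted p = 0.026) and Nfatc1 (0.47, adjusted p = 0.0194) lost their calls under some alternatives. Both were lost, for example, without PMA_ethanol library 3 (adjusted p = 0.0727 and 0.0624). In PMA_1002 versus Control 5 of the 14 fell and 4 rose (median -0.08), where 26.7% of all genes fell and 28.4% rose. Of those 4, Nfatc1 and Nfatc2 lost their calls, for example, without Control library 1 (adjusted p = 0.0708 and 0.0956). Celsr1, a polarity cadherin of epidermis, fell by 1.21 in PMA_ethanol versus Control (SE 0.168, edgeR adjusted p = 8.87e-06) and rose by 0.78 in PMA_1002 versus PMA_ethanol (SE 0.162, adjusted p = 0.00151). Its relative Celsr3 rose by 2.0 in PMA_ethanol (SE 0.235, adjusted p = 9.17e-07) and by 1.08 in PMA_1002 (SE 0.221, adjusted p = 0.000562), both versus Control. Nfatc2 and Nfatc4, calcium-driven transcription factors, rose by 1.11 (SE 0.174, adjusted p = 0.000114) and 0.84 (SE 0.157, adjusted p = 0.000514) in PMA_1002 versus PMA_ethanol. Vangl2, a core polarity protein, fell by 0.97 in PMA_1002 versus Control (SE 0.213, adjusted p = 0.00123), and Camk2d rose by 0.50 (SE 0.096, adjusted p = 0.000296). Nfatc3 fell by 0.52 in PMA_ethanol versus Control (SE 0.0757, adjusted p = 1.02e-05).

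The promoters of members with lower levels in PMA_ethanol differed widely in base composition. RefSeq promoters (GRCm38.p6, 250 bases before to 50 after the start) were matched for 7 of the 10 genes, 8 windows in all. They are shown for Wnt4 and Wnt16, with CpG pairs in capitals. By mean, Wnt4 had the highest level per length in PMA_1002 and Control, and Wnt16 the lowest in all 3 groups. Both genes were lower in every PMA_ethanol library than in any Control library.
Wnt4: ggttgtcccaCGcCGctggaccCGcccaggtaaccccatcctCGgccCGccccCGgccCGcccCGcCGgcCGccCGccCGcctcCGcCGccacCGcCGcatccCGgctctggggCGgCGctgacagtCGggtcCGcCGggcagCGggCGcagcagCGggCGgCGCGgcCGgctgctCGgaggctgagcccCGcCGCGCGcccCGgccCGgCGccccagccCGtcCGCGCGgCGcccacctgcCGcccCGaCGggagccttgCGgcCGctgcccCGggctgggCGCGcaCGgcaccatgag
Wnt16: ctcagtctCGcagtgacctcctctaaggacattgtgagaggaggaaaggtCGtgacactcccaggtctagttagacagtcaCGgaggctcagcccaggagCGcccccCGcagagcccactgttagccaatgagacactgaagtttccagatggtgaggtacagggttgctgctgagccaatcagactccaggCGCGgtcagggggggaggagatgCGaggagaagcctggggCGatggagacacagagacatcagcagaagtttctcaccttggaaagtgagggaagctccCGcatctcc

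The Wnt4 window (chr4:137277385-137277684, plus strand) was 84.3% G and C with 51 CpG, and the Wnt16 window (chr6:22287977-22288276, plus strand) was 58.0% with 10 CpG, against medians of 52.7% and 7 over 32851 mouse promoters. Motif letters were searched on both strands: TGANTCA for AP-1, the factor that PMA is known to activate, and CTTTGA for TCF and LEF factors. The AP-1 letters occur in 7.8% of all the promoters and the TCF and LEF letters in 16% of them. The single match in the 8 windows was the TCF and LEF letters in the first of 2 Wnt11 windows, 50 bases before its start site. A match is a description of letters and not a site of binding, and a window without one says nothing of the factor.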

How the data were processed

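Per the labels' protocols, libraries were made from the polyA RNA of ear tissue and keep the strand. STAR 2.5, HTSeq, FastQC 0.11.5, MultiQC 0.8 and the GRCm38 build are named, without their order, per the submitters' processing notes. The authors deposited raw whole-number read counts of 48795 genes for each library. Rows that name no gene held 28.8% to 30.96% of the reads in PMA_1002, 31.11% to 32.85% in PMA_ethanol and 28.5% to 30.05% in Control. PMA_ethanol thus lay above both other groups. These rows stayed out of library sizes and tests. Identifiers were paired with symbols, exons and transcripts through GENCODE M21, where 48349 had a symbol.

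Groups came from the sample titles. Counts were fitted in R 4.3.3 with edgeR 4.0.16 (TMM scaling, filterByExpr by group, robust quasi-likelihood fit over 15 libraries, no covariate), leaving 14991 genes. SE were derived from the F statistic, and log2 CPM used a prior count of 2. CPM per kilobase divides by the length of all exons of a gene. Tested on simulated data for PMA_ethanol versus Control over 14637 genes, the fit called 73% of genes raised by a fold of 2 and 96% of those raised by a fold of 4. Of its calls, 4.52% were false. Only some genes above about 1 CPM in Control were raised there and all others were unchanged. These rates may therefore not hold for members that fell. Chi-square per degree of freedom between libraries of a group was 2.927 to 27.02 over 31 pairs, so none was treated as a repeat. The members, the pathway lists and the marker lists were chosen with earlier results of these data known, the lists from textbook knowledge. Up to 3 called genes per pathway list and comparison, those of smallest adjusted p, are named. Alternatives were RLE and upper-quartile scaling, no filter, DESeq2 1.42.0, the compared groups alone, a replicate block, the hair follicle level as covariate and each library left out. The test of members against the hair follicle level, and its repeat without 2 libraries, were added after seeing the data. Intervals and floors cover counting error only.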

Additional observations from a re-analysis of the deposited data

Results flagged for a closer look

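In 7 of the 159 sets of 4 to 6 libraries looked at (each member and named pathway gene in each group), 1 library stood apart from the rest of its group by Dixon's criterion, which chance meets in about 1 in 20 sets. Among the members, Wnt4 was 120 CPM in PMA_1002 library 3, against 69.9 to 84.4 CPM in the other 5 libraries. Wnt16 was 4.91 CPM in PMA_1002 library 6, against 1.24 to 2.39 CPM in the other 5. Wnt5a was 22 CPM in PMA_ethanol library 2, against 9.96 to 10.6 CPM in the other 3. Among pathway genes, PMA_1002 library 6 also stood high for Bcl9l (101 CPM, next 71.0) and Pygo1 (14.6 CPM, next 12.4). PMA_ethanol library 2 also stood high for Wnt5b (2.32 CPM, next 1.66) and Znrf3 (24.1 CPM, next 20.3). That library had the highest hair follicle level of its group, 6.747. With the group held fixed, the slope on this level was 0.13 for Wnt5a (edgeR adjusted p = 0.00945), 0.05 for Wnt5b (adjusted p = 0.536) and 0.01 for Znrf3 (adjusted p = 0.864). These slopes were fitted with that library included. Without it and Control library 3, the Wnt5a slope was 0.09 (edgeR adjusted p = 0.124) and was not called. The cause of these high values was not tested.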

How the results depend on the processing

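The counts of genes, of members and of pathway genes called in each comparison stayed within 1.5 times the reported value under all 22 alternatives, and every member call was kept in all of them. Of the members' fold changes under alternatives, 634 kept direction and side of the threshold, 10 passed it that had not, and 16 changed sign, all of values that were not called. With upper-quartile scaling, Wnt10a was -0.21 and Wnt11 -0.20 for PMA_ethanol versus Control. With no filter Wnt4 was 0.02 for PMA_1002 versus Control. With the hair follicle level as covariate Wnt11 was 0.09 for PMA_1002 versus PMA_ethanol and 0.13 for PMA_1002 versus Control. Leaving out 1 library at a time, Wnt4 ran from -0.16 to 0.03 for PMA_1002 versus Control, Wnt10a from -0.03 to 0.08 for PMA_ethanol versus Control, and Wnt11 from -0.28 to 0.37 for PMA_ethanol versus Control, from -0.29 to 0.19 between the PMA groups and from -0.22 to 0.25 for PMA_1002 versus Control. The cause was not tested. For the hair follicle level, 1 of 10 members (Wnt5a) was called with edgeR, and 0 (1 at an unadjusted p under 0.05) without the 2 libraries farthest from its median, a check chosen after seeing the data that uses fewer libraries.

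Upper-quartile scaling moved the median of all genes by -0.236 for PMA_ethanol versus Control and by -0.158 for PMA_1002 versus Control. Of the calls, 33.6% were then higher against 47.5% with TMM scaling for PMA_ethanol versus Control, 61.8% against 48.7% for PMA_1002 versus PMA_ethanol, and 34.6% against 51.5% for PMA_1002 versus Control. With it Wnt10b was called for PMA_ethanol versus Control (-0.99) and Wnt7b for PMA_1002 versus Control (-0.33). Deviations of same-numbered libraries from their group means correlated with r from -0.533 to 0.579 over genes. Correlations of both signs do not settle whether the numbers pair the samples, and the main fit used no pairing. With the replicate block 9862, 3988 and 7807 genes were called, against 10258, 5244 and 8250, and the members' calls stayed at 7, 6 and 5. For PMA_1002 versus PMA_ethanol, the block left Wnt6 (0.82, adjusted p = 0.113), Tmem88 (-0.89, adjusted p = 0.0859), Tcf7l2 (0.39, adjusted p = 0.0523) and Pygo1 (0.40, adjusted p = 0.0521) uncalled. The block also left Kremen1 (0.22, adjusted p = 0.145) and Vangl2 (0.76, adjusted p = 0.0938) uncalled. Depth limits Wnt16, Wnt3a and Wnt9a most, with 19, 67 and 87 reads in PMA_ethanol.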
